A study of Equus caballus with 6 samples.

Results

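Expression of 6 genes of T cells and of the cytokines that steer them was followed in circulating horse leukocytes before and after exercise: the surface receptors CD2, CD28 and IL7R, and the cytokine genes IL4, IFNG and IL23A. A probe was taken as a member when the array file links it to a RefSeq transcript of one of these genes. This gave 24 probes for 6 genes, out of 43603 probes on the array and 870 genes that could be named. CD2, CD28, IL7R and IL23A have 1 probe each, IFNG has 3 and IL4 has 17. Of the 24 probes, 22 were well above background on at least 3 arrays and entered the test, and the 2 left out are probes of IL4. The 3 warmblood horses are geldings numbered 1, 2 and 4, with labelled ages of 11, 7 and 15 years, while the series text gives an age range of 9 to 17 years. Each horse gave jugular blood before and after exercise, which makes 3 arrays before and 3 after, and the horses received no other treatment that the labels name. The RNA came from the buffy coat, the layer of white cells and platelets above the red cells, so it mixes all leukocyte types. The labels of the later samples add 60 minutes, whereas the protocol speaks of sampling right after the exercise, and the time is therefore not settled.

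T cells recognise antigen through the T cell receptor, and whether they respond depends on further surface proteins. CD2 binds adhesion partners on other cells and strengthens the contact, CD28 delivers the costimulatory signal, and IL7R is the receptor chain through which interleukin 7 keeps naive and memory T cells alive. Activated helper T cells then follow programmes named after their cytokines: interferon gamma (IFNG) marks type 1 cells and is also made by NK cells, interleukin 4 (IL4) marks type 2 cells and is also made by basophils, and IL23A is the subunit specific to interleukin 23, which myeloid cells make and which maintains type 17 cells. Exercise is known to move lymphocytes into and out of the blood within minutes to hours. In a bulk sample of this kind, fewer cells of a type and less RNA per cell cannot be told apart.

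Levels are given throughout as the log2 of the processed signal minus the 75th percentile of the array, so a level of 0 equals that percentile. A change is the level after minus the level before exercise. An SE is the moderated standard error of limma from 3 against 3 arrays, fitted without the horse as a block, so it includes level differences between horses. The share of spots well above background ran from 64.1% to 69.4% over the arrays. The arrays lay on 2 slides, and slide 2 held only the pre-exercise samples of horses 1 and 2. Across the array, limma called 0 of 29570 probes between after and before (0% called, Benjamini-Hochberg adjusted p under 0.05), and 2.89% had an unadjusted p under 0.05. That count was 595 without the horse 4 array before exercise and 20 without both arrays of horse 4, while each of the other 7 omissions left it at 0. Those 2 omissions leave only slide 2 arrays before and only slide 1 arrays after exercise. Exercise and slide cannot be told apart in them. None of the 22 member probes passed (lowest adjusted p 0.999), none had an unadjusted p under 0.05, and in none did the before and after arrays separate without overlap (3.51% of all probes separated upward and 3.8% downward). Their limma adjusted p ran from 0.75 to 0.99 with the horse as a block. The brightest kept probe of each gene stands for it below, and leaving out any horse or any single array brought none of these 6 past the threshold for the change.

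**Figure D1:**
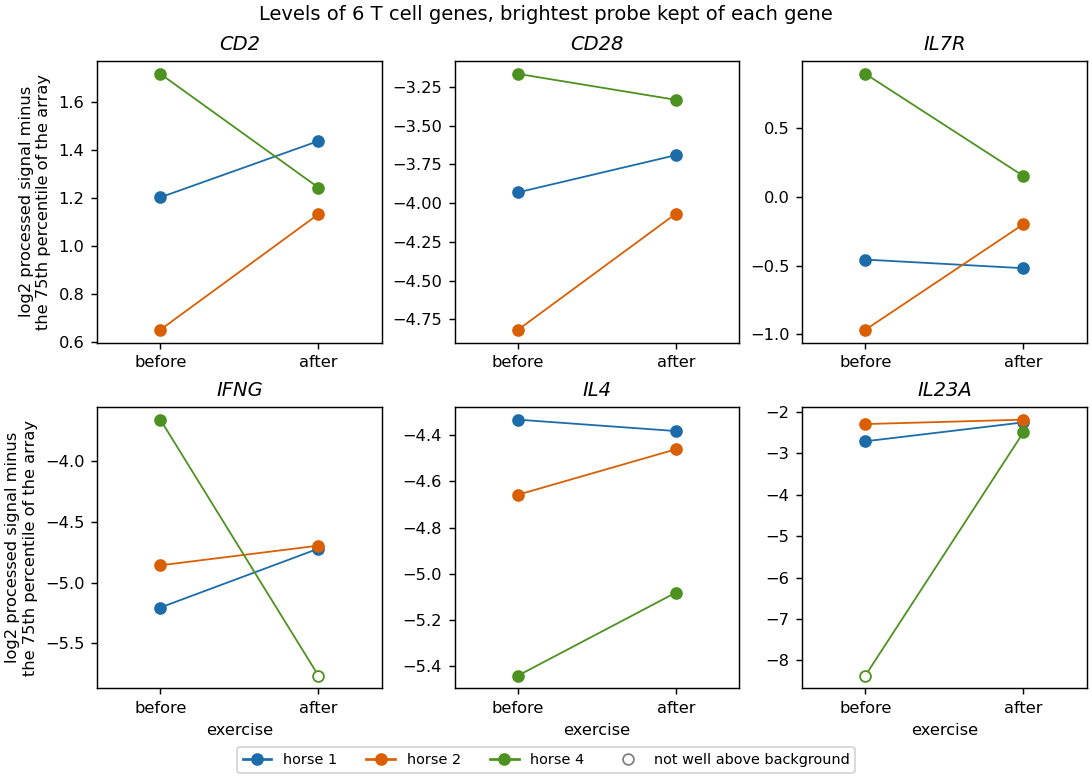
Level of the brightest kept probe of each gene, as log2 processed signal minus the 75th percentile of the array, before and after exercise, with 1 line per horse and open points where the spot was not well above background. CD2 and CD28 were higher after exercise in horses 1 and 2 and lower in horse 4, and the IL23A value of -8.36 before exercise in horse 4 is a dark spot.

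CD2 was read clearly on every array and hardly differed between the groups. Its level before exercise was 1.20 in horse 1, 0.65 in horse 2 and 1.72 in horse 4, and after exercise it was 1.44, 1.13 and 1.24 in the same order. The groups overlapped, and the spread of the 3 horses was wider before (SD 0.53, n = 3) than after exercise (SD 0.15, n = 3). The arrays before exercise came from slides 1 and 2 and those after from slide 1, so the SD before also takes in any slide difference. The changes within horses were 0.23, 0.48 and -0.47, so horses 1 and 2 stood opposite to horse 4. Their mean of 0.081 (SE 0.29, limma adjusted p = 0.999) was small beside this spread. The sign turned to -0.45 with slide as a block, a fit that sets the 3 arrays after exercise against the horse 4 array before exercise alone, as slide 1 by itself does. It also turned without the horse 2 array before exercise (-0.19), without both arrays of horse 2 (-0.12) and without the horse 1 array after exercise (-0.0023).

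CD28, the costimulatory receptor, was also read on every array, at a low signal. Its level was -3.93, -4.82 and -3.17 before and -3.69, -4.07 and -3.33 after exercise in horses 1, 2 and 4. Processed signals ran from 89.9 to 195, and all 6 spots were well above background. Horse 4 was the highest and horse 2 the lowest in both groups, and the groups overlapped. The changes within horses were 0.24, 0.75 and -0.17, with a mean of 0.27 (SE 0.43, limma adjusted p = 0.999). The SE of this mean was 0.23 with the horse as a block (limma adjusted p = 0.78). With slide as a block the change was -0.53, and without the horse 2 array before exercise it was -0.15.

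IL7R, which sets how well resting T cells receive interleukin 7, had the widest spread of changes among the 3 receptors (SD 0.76, n = 3). Its level before exercise was -0.46, -0.97 and 0.89 in horses 1, 2 and 4, and after exercise -0.52, -0.20 and 0.15. The highest and the lowest value both belonged to the group before exercise, with an SD of 0.96 (n = 3) against 0.34 (n = 3) after. Here too the SD before spans slides 1 and 2, while the SD after lies within slide 1. The changes within horses were -0.063, 0.77 and -0.74, so horses 2 and 4 stood on opposite sides of 0. The mean change was -0.013 (SE 0.48). It was 0.076 when arrays were scaled by their median and -1.08 with slide as a block. It lay above 0 without horse 1 (0.012), without horse 4 (0.35), without the horse 1 array after exercise (0.15) and without the horse 4 array before exercise (0.52), all without a call in limma.

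The receptors thus shared an order of the changes, with horse 2 highest and horse 4 lowest in each. This order was not particular to them. The red cell markers HBB and HBA2, the monocyte markers CD14 and TLR4 and the neutrophil marker LTF had it too. CSF1R, TLR2 and FCAR, of the same marker lists, did not. Its share over all kept probes was not counted. Higher in horses 1 and 2 and lower in horse 4 was the pattern of 5 of the 22 tested member probes (CD2, CD28 and the 3 probes of IFNG). Of all kept probes 24.1% had it. The 22 include 15 probes of IL4, which read 1 transcript, so the share of member probes is not a share of genes. By gene, CD2, CD28 and IFNG had the pattern, and IL7R, IL4 and IL23A did not. This split depended on the scaling. Before scaling, IL7R had the pattern (0.057, 0.59 and -1.38), and the brightest IFNG probe did not (0.60, -0.013 and -2.75). Only 1 of the 3 IFNG probes was then higher in horse 2. In horses 1 and 2 the change also crosses from slide 2 to slide 1, while that of horse 4 lies within slide 1, so slide and horse cannot be told apart in this pattern.

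IFNG, the type 1 cytokine, was read by 3 probes near the lower end of the signal range, and the probes disagreed in horse 4. Processed signals before exercise were 43.8 to 48.7 in horse 1, 71.7 to 87.5 in horse 2 and 33.5 to 139 in horse 4. After exercise they were 61.6 to 80.8, 65.7 to 86.7 and 20.7 to 22.0. On the scaled levels the brightest probe, A_69_P001506, stood at -5.20, -4.86 and -3.66 before and at -4.72, -4.70 and -5.76 after exercise, the last not well above background. Horse 4 thus held both its highest value, before exercise, and its lowest, after.

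The 3 IFNG probes changed by 0.48, 0.23 and 0.77 in horse 1 and by 0.16, 0.049 and 0.28 in horse 2, in the order of A_69_P001506, A_69_P001507 and A_69_P001508. In horse 4 they changed by -2.11, -0.043 and -1.09. All 3 were therefore higher after exercise in horses 1 and 2, and lower in horse 4 by amounts that ranged from near 0 to the most negative change of any member probe. The 3 probes read 1 transcript in the same samples and are not replicates. Over the 3 horses the changes were -0.49 (SE 0.48), 0.078 (SE 0.28) and -0.016 (SE 0.35), each with an adjusted p of 0.999 or more in limma.

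The horse 4 array before exercise had dark spots in the odd rows of its first column, and A_69_P001506 lies in that column but in an even row. Of such even-row probes, 0 of the 141 that were above background on the other 5 arrays were dim on that array. Leaving the whole column of that array out moved its change to -0.029 (SE 0.39), since the bright reading before exercise goes with it. Normexp background correction gave -0.10, and without horse 4 the value was 0.32. With slide as a block it was -1.40, and with horse and slide as blocks it was -2.11, the change of horse 4 itself, neither with a call in limma (adjusted p = 0.998 and 0.195).

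**Figure D2:**
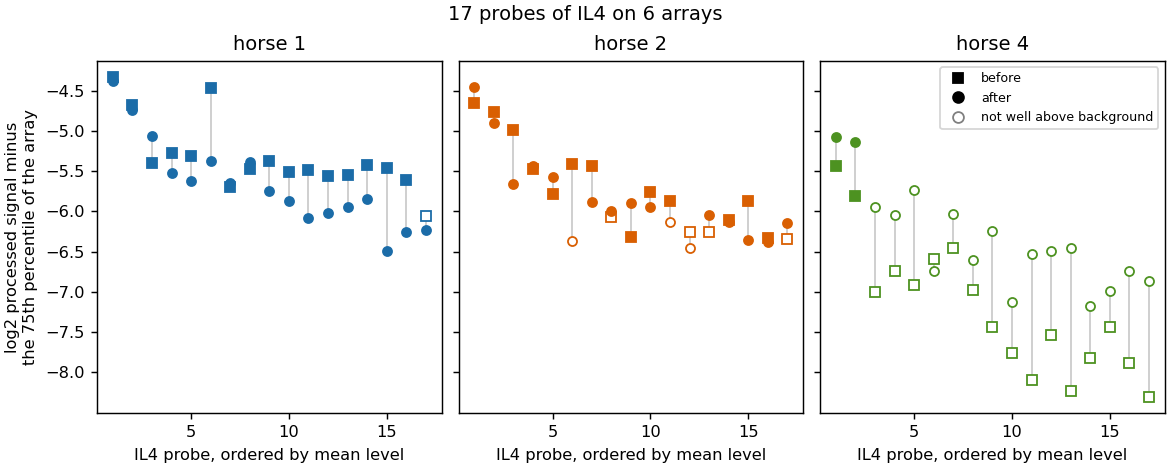
Level of the 17 IL4 probes in each horse, ordered by their mean level, with squares before and circles after exercise and open symbols where the spot was not well above background. In horse 4 only 2 probes were above background on either array, and most circles lie above their squares there.

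IL4, the type 2 cytokine, was the member with most probes and lay close to the detection limit. Of its 17 probes, 16 and 17 were well above background in horse 1 before and after exercise, 13 and 14 in horse 2, and only 2 on each array of horse 4. The median processed signal over the 17 probes was 40.7 and 36.4 in horse 1, 43.2 and 35.2 in horse 2, and 10.2 and 12.5 in horse 4. IL4 was thus dimmest in horse 4 at both times: for 15 of the 17 probes the 2 horse 4 arrays were the lowest of the 6. Among all kept probes 13.6% had that order, but the 17 probes share 1 transcript and 6 samples, so they count as a single observation of it.

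The 2 IL4 probes that were above background on all 6 arrays were A_69_P003025 and A_69_P003024. The first, the brightest of the gene, had levels of -4.33, -4.66 and -5.44 before and -4.38, -4.46 and -5.08 after exercise in horses 1, 2 and 4. Its changes of -0.049, 0.20 and 0.36 averaged 0.17 (SE 0.34, limma adjusted p = 0.999). The second changed by -0.065, -0.14 and 0.67, with a mean of 0.15 (SE 0.33). Horse 4 was lowest before and after exercise for both, and neither change exceeded the spread between horses. The value of the first was 0.80 with slide as a block, and -0.15 without the horse 4 array before exercise.

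Over the probes that were tested, the IL4 change ran from -0.67 to 0.54 with a median of 0.16. It was above 0 for 13 of 15 IL4 probes, beside 16818 above and 12752 below 0 over all kept probes. The direction depended on the horse: 3 of 17 probes were higher after exercise in horse 1, 7 in horse 2 and 16 in horse 4, with median changes of -0.35, -0.047 and 0.70. Of all kept probes, 52.1%, 58.2% and 50.5% were higher in these horses. Probes that were not well above background on any array had the same order, at a median of -0.45 in horse 1, -0.15 in horse 2 and 0.37 in horse 4 (10437 probes). All IL4 probes but 2 were above background on 1 to 5 arrays, and probes of that class had medians of -0.25, -0.24 and 0.077 (6506 probes). In horse 4 the IL4 median of 0.70 lay above the upper quartile of both classes (0.39 and 0.46). Before scaling, the median change of the probes above background on no array was -0.33, -0.32 and -0.27. It was -0.13, -0.42 and -0.56 for those above it on 1 to 5 arrays, and 0.14, -0.074 and -0.64 for all kept probes. The IL4 probes then had medians of -0.24, -0.22 and 0.055, and 5, 5 and 11 of the 17 were higher after exercise. Scaling shifts every probe of a horse by the same amount, so the distance of IL4 from the other probes stays as it was. In horse 4 the IL4 median lay above that of all kept probes (0.0042 after scaling) on both scales. So did the medians of the probes above background on no array and of those above it on 1 to 5 arrays. Only 2 of the 17 IL4 probes were above background on either array of horse 4.

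A pair of IL4 probes had the same sign in all horses, one negative and one positive. A_69_P006338 differed by -0.91, -0.96 and -0.15 and was above background on 2 arrays before and 1 after exercise, with a mean of -0.67 (SE 0.59, limma adjusted p = 0.999; adjusted p = 0.75 with the horse as a block). With that block it was the 1 member probe of 22 with an unadjusted p under 0.05, where 6.08% of all probes had one. A_69_P006340 differed by 0.076, 0.067 and 0.38. Together with IL23A, 2 of 22 tested member probes were higher in all 3 horses and 1 was lower, where 17.3% and 11.5% of all kept probes were.

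**Figure D3:**
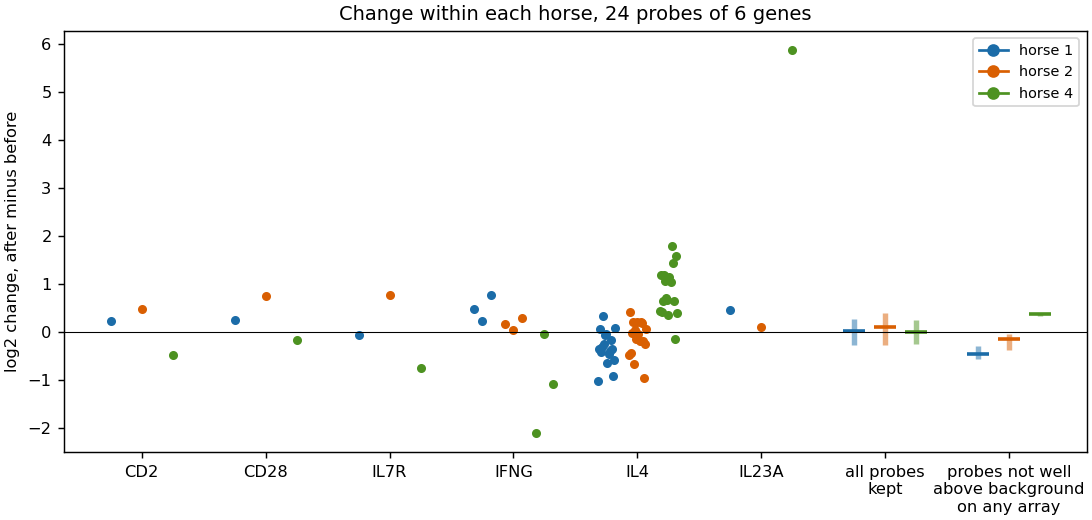
Change after exercise (log2, after minus before) of each of the 24 member probes in horses 1, 2 and 4, beside the median (dash) and quartiles (bar) of all kept probes and of the probes not well above background on any array. The IL4 probes of horse 4 lie mostly above 0, as do the dim probes of that horse at a median of 0.37, and the IL23A point at 5.86 rests on a dark spot. Probes above background on 1 to 5 arrays are not drawn, and had a median of 0.077 in horse 4.

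IL23A, the subunit particular to interleukin 23, kept a narrow range on 5 of the 6 arrays. Its level was -2.72 in horse 1 and -2.30 in horse 2 before exercise, and -2.26, -2.20 and -2.50 in horses 1, 2 and 4 after. On the horse 4 array before exercise it was -8.36, with a processed signal of 5.33 against 198 to 514 on the other arrays, and that spot was not well above background. The change in horse 4 was therefore 5.86, beside 0.46 and 0.11 in horses 1 and 2, and the mean was 2.14 (SE 1.51, limma adjusted p = 0.999).

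The IL23A probe lies in an odd row of the first array column. Of 130 odd-row probes of that column that were above background on the other 5 arrays, 122 were dim on the horse 4 array before exercise, and their median difference from the mean of the other arrays before exercise was -7.55. In other columns 98 of 26609 such probes were dim there. The 4 nearest odd-row spots on either side of the IL23A probe read between -8.36 and -6.87 on that array, although their medians on the other 5 arrays ran from -8.01 to 5.13. With the column of that array left out, IL23A had a change of 0.19 (SE 0.24, limma adjusted p = 0.999), which compares 2 arrays before with 3 after exercise. With slide as a block the change was 6.04 and passed (limma adjusted p = 0.000314), because that fit uses the dark spot as its only array before exercise.

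**Figure D4:**
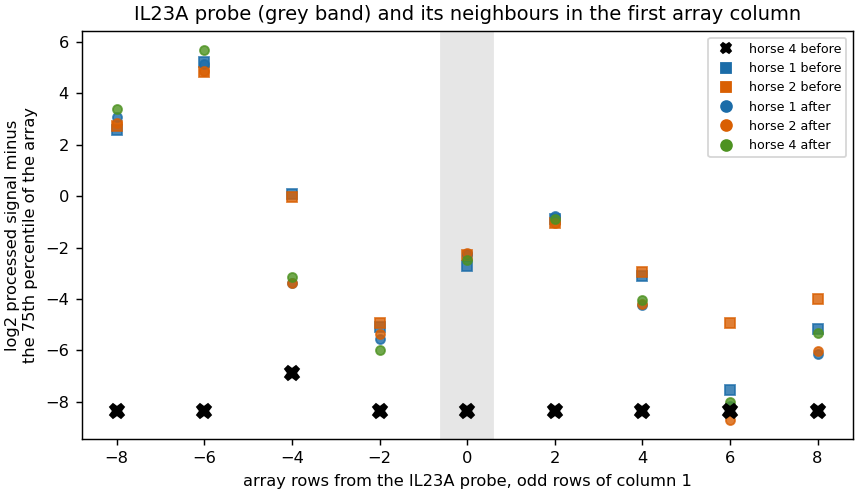
Level of the IL23A probe (grey band) and of the odd-row probes up to 8 rows away in the first array column, as log2 processed signal minus the 75th percentile of the array. The horse 4 array before exercise (crosses) lies at -8.36 at every position but one, beside medians of the other 5 arrays from -8.01 to 5.13.

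Levels of the members were also compared between the 3 animals, with exercise in the model. An F-test in limma passed 70 of 29567 probes over the array (0.237%), and an unadjusted p under 0.05 was found for 15.5%. Of the 22 member probes 8 had such a p, 6 of them IL4 probes, which read 1 transcript, and the others 1 probe each of CD28 and IFNG. The count of 70 was 0 to 29 without either horse 1 array, the horse 2 array before or the horse 4 array before exercise, and 456 without the horse 4 array after exercise. None of the 22 member probes passed (lowest adjusted p 0.19, for an IL4 probe). CD28 had horse means of -3.81, -4.44 and -3.25 in horses 1, 2 and 4 (adjusted p = 0.27), and IL7R had -0.49, -0.58 and 0.52 (adjusted p = 0.37). CD2 had 1.32, 0.89 and 1.48 (adjusted p = 0.51). The brightest IL4 probe had -4.36, -4.56 and -5.26 (adjusted p = 0.25), the reverse of IL7R in that horse 4 was lowest. The 3 receptors were all highest in horse 4, and none of these differences passed the test. IL23A passed only without the horse 4 array after exercise (limma adjusted p = 0.0125), when its dark spot alone stood for horse 4.

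The T cell programme around these genes could be followed only in part. Of 132 further pathway genes listed, 24 had a named probe and 21 were measured, and none of the 18 listed genes of the T cell surface and receptor complex or the 15 of receptor signalling was among them. Of the 21, 0 passed in limma in either direction and 0 had an unadjusted p under 0.05. The change was above 0 for 15 and below 0 for 6, with a median of 0.080. Over all kept probes it was above 0 for 16818 and below 0 for 12752, with a median of 0.044. PIAS3 is among the 15 only through the dark column of the horse 4 array before exercise. Higher in horses 1 and 2 and lower in horse 4 was the pattern of 6 of the 21, against the 24.1% of all kept probes given above.

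Among T helper and related cytokines 11 of 23 genes were measured, 7 with a change above 0 and 4 below, at a median of 0.080. The 3 with the smallest p were IL6, IL2 and IL15. IL6, which with other cytokines turns helper cells toward type 17, changed by 2.03, 0.28 and 0.90 in horses 1, 2 and 4 (mean 1.07, SE 0.54). Its probe was above background on 1 array before and 2 after exercise, and it passed in limma under 1 alternative, array weights (1.65, adjusted p = 0.046). The value was 0.34 with normexp correction, 0.61 without the horse 1 array before exercise, 0.59 without horse 1 and 1.67 without the horse 2 array before exercise. IL2, the T cell growth factor, had -0.39, 0.088 and -0.60 (mean -0.30, SE 0.25), and 2 of its 5 kept probes had the other sign. IL15, which sustains memory T cells and NK cells, had -0.22, -0.31 and 0.049 (mean -0.16, SE 0.20). IL13 and IL5, which type 2 cells make beside IL4, had mean changes of 0.12 (SE 0.20) and -0.068 (SE 0.25). IL12B, which encodes the other subunit of interleukin 23, had a probe that was not kept, as had IL17A, the main type 17 cytokine.

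**Figure D5:**
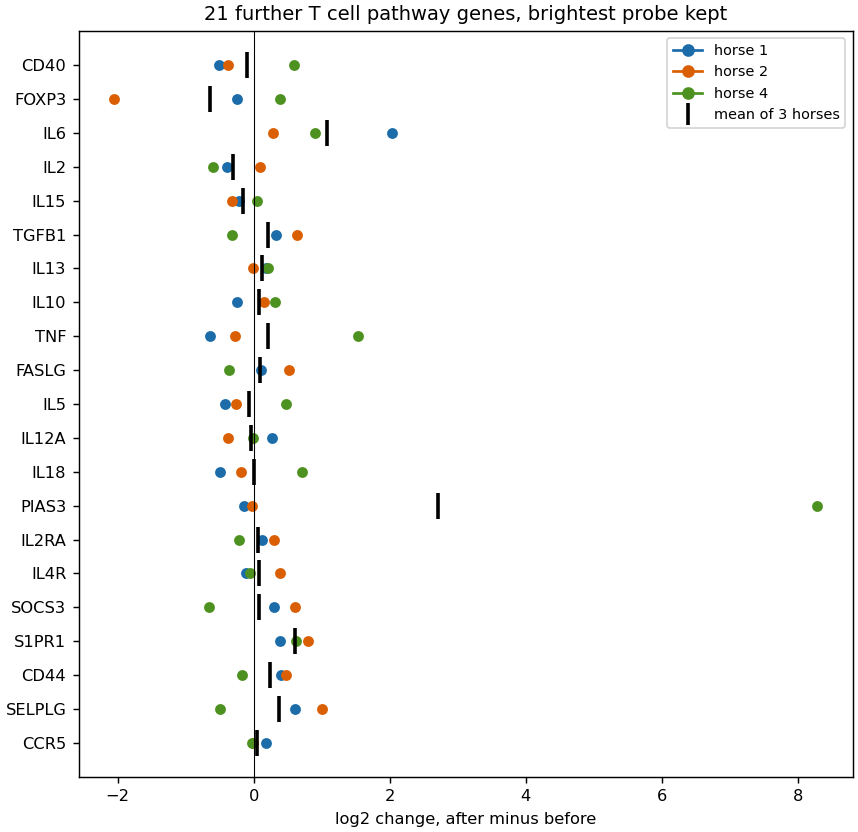
Change after exercise (log2, after minus before) of 21 further T cell pathway genes by the brightest kept probe, with 1 point per horse and a bar at the mean of the 3. Most points lie within 1 of 0, and the PIAS3 point at 8.29 in horse 4 comes from the same dark column as IL23A.

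Of the receptors and signalling genes for these cytokines, 4 of 25 were measured. IL4R, the receptor chain for interleukin 4 and interleukin 13, changed by -0.10, 0.39 and -0.049 (mean 0.080, SE 0.24), and its sign turned with quantile normalization (-0.055). IL2RA, the high-affinity chain of the interleukin 2 receptor, had 0.12, 0.29 and -0.21 (mean 0.067, SE 0.19), with the other sign in 3 of its 5 kept probes. PIAS3, an inhibitor of STAT3, had the largest mean of the list (2.71, SE 2.26), from 8.29 in horse 4 alone. Its probe lies in the first column too, and without that column on the horse 4 array before exercise the change was -0.23. FOXP3, the factor that defines regulatory T cells, was the 1 measured of 19 transcription factors and had -0.25, -2.05 and 0.39, with a probe above background on 2 arrays before and 1 after. CD40, the partner of the T cell's CD40 ligand on other cells, was the 1 measured of 16 costimulation genes and had -0.51, -0.38 and 0.59.

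Genes of T cell trafficking were measured in 4 of 16 cases, all with a mean change above 0 (median 0.31, range 0.050 to 0.61), and none passed. S1PR1, the receptor that lets lymphocytes leave lymphoid tissue, was higher after exercise in all 3 horses, by 0.39, 0.80 and 0.62 (mean 0.61, SE 0.32; limma adjusted p = 0.999, and adjusted p = 0.75 with the horse as a block). Its change was 0.27 within slide 1, the lowest of all alternatives run. CD44, an adhesion receptor that rises on memory T cells, had 0.41, 0.47 and -0.17, and SELPLG, a selectin ligand, had 0.61, 1.01 and -0.49, the order that CD2 and CD28 showed. With slide as a block their values were -0.10 and -0.44. The mean of SELPLG, 0.38 (SE 0.36), was 0.075 without the horse 2 array before exercise, 0.059 without horse 2 and 0.81 without horse 4. That of CD44, 0.24 (SE 0.21), was 0.12 without horse 2 and 0.44 without horse 4.

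Markers of other cells of the buffy coat were read beside the T cell genes, and none was called. The 5 measured of 13 NK and cytotoxic cell markers (NCR1, GNLY, CCL5, GZMB and KLRD1) had median changes of 0.37, 0.46 and -0.48 in horses 1, 2 and 4. CCL5, GZMB and KLRD1, 3 of the 5, were higher in horses 1 and 2 and lower in horse 4, as CD2, CD28 and IFNG were. So were 3 of 7 monocyte markers, 1 of 3 neutrophil and 1 of 3 platelet markers, and 24.1% of all kept probes. Of the B cell, red cell and basophil markers, 0 were. Slide and horse cannot be told apart in this pattern. GNLY was higher in all 3 horses (0.80, 0.57 and 0.38), and NCR1 had -0.44, 0.16 and -0.63. The mean level of the 5 NK and cytotoxic cell markers ranged from 1.94 to 2.99 before and from 2.36 to 2.68 after exercise. The 3 measured B cell markers of 12 (TNFRSF13C, PAX5 and FCER2) had medians of -0.17, -0.20 and 0.29, and mean levels of -2.58 to -1.97 before and -2.43 to -2.23 after. FCER1A, the 1 measured basophil and eosinophil marker of 11 and so of a cell type that also makes IL4, had -0.48, 0.13 and 0.65, with levels of 3.64, 3.10 and 1.99 before and 3.17, 3.23 and 2.64 after exercise. It was lowest in horse 4 at both times, as IL4 was. Of all kept probes 13.6% had both horse 4 arrays as the lowest of the 6, and the mean level of the B cell markers had that order too. A link between FCER1A and IL4 was not tested. For 3 neutrophil markers of 17 the medians were 0.15, 0.41 and 0.12, for 7 monocyte markers of 13 they were 0.26, 0.22 and 0.10, for 3 platelet markers of 10 they were 0.19, -0.035 and -0.15, and for 2 red cell markers of 10 they were 0.91, 2.48 and 0.24. Mean red cell marker levels in horses 1, 2 and 4 were 5.53, 1.27 and 7.67 before and 6.44, 3.75 and 7.91 after exercise. Horse 4 was highest and horse 2 lowest at both times, as for CD28. All the measured markers were well above background on all 6 arrays, and their part in the T cell values was not tested.

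The named genes whose levels followed each member most closely over the 6 arrays were taken from 489 candidates above background throughout. For CD2 they were SOCS3, a feedback inhibitor of cytokine signalling (r = 0.997), EIF4G1 (r = 0.996) and PRKAB1 (r = 0.966). For CD28 they were CPT1A (r = 0.995), APOBEC3Z2A-Z2 (r = 0.987) and ACTB (r = 0.983), and for IL7R they were OS9 (r = 0.970), POLD3 (r = 0.969) and PAQR8 (r = 0.962). CARMIL1 (r = 0.990), EQMHCC1 (r = 0.979) and CD1A2 (r = 0.973) were closest to the brightest IL4 probe, and TXNRD1 (r = 0.874), ZNF322 (r = 0.849) and QKI (r = 0.817) to that of IFNG. The values for IL23A, up to 0.952 for BSDC1, with COA4 (0.899) and CIAO2A (0.882), rest on the dark spot. Each r describes 6 arrays from 3 horses that share slides and scaling, and is the highest of many candidates.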

How the data were processed

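Total RNA of buffy coat leukocytes carried Cy3 dye and was read on 1-colour Agilent arrays, per the labels. The deposited values are intensity readings from Agilent Feature Extraction 10.10.1.1, background-subtracted and not normalized between arrays, per the file headers. Other upstream steps are not given in the sources used here. The log2 was taken, the 75th percentile of the 43803 non-control spots of an array was subtracted, outlier-flagged spots were left out, and spots of a probe were averaged. Probes well above background on at least 3 of 6 arrays were kept (29571 of 43603). Groups were compared without the horse as a block by two-sided limma tests (version 3.58.1, R 4.3.3), with p-values adjusted by Benjamini-Hochberg over every kept probe and called below 0.05. The fits were tested on simulated data. The pairing comes from the horse number in the labels. Same-numbered arrays deviated together (correlations 0.36, 0.40 and 0.23). The horses are separate animals, and precision is limited by having 3 of them.

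Probes were named through RefSeq transcripts, without versions, and a table of the assembly TB-T2T (1979 probes, 870 genes). The files name another build, so no coordinates are given. Sequences are not used here. The brightest kept probe speaks for a gene, except that all probes of the 6 members are described. The members and gene lists were chosen with earlier results of these data known. The rule for named genes takes all members, the 3 genes with the smallest p in each pathway list, all measured markers, and the 3 genes most like each member. IL13, IL5, IL12B and IL17A were named beside this rule as partners of members. Alternatives were normexp correction (offset 50, run on median spot signals), quantile and median scaling, no filter or a stricter one, flagged spots kept, horse and slide as blocks, slide 1 alone, array weights, the first column of the horse 4 array before exercise left out, averaging the kept probes of a gene, and omission of each horse or array.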

Additional observations from a re-analysis of the deposited data

How the results depend on the processing

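Under the alternatives, 105 of 126 changes of the 6 members kept their sign and their side of the threshold, 18 changed sign, and 3, all of IL23A, passed. Probes called after against before exercise numbered 131 with slide as a block, 116 with the replicate block and slide together, 122 on slide 1 alone, 1638 with array weights, and 0 to 595 with a horse or array left out. With the replicate block, the horse number as a block, 0 probes were called in limma (1798 at an unadjusted p under 0.05), and it changed no other call. Probes called between horses numbered 70, 1 with quantile normalization, 2 with no filter, 1 with flagged spots kept, 1 with slide as a block, 360 with array weights, and 0 to 456 with an array left out. With slide as a block or on slide 1 alone, and then with horse and slide as blocks, CD2 was -0.45 and -0.47, CD28 -0.53 and -0.17, IL23A 6.04 and 5.86 (passing), CD40 0.48 and 0.59, FOXP3 0.21 and 0.39, IL15 0.074 and 0.049, IL2RA -0.15 and -0.21, IL4R -0.19 and -0.049, CD44 -0.10 and -0.17, and SELPLG -0.44 and -0.49. The first pair of fits has the horse 4 array as its only array before exercise, and the last rests on the pair of horse 4. IL7R was 0.076 with median scaling, and with array weights IFNG was 0.26, IL4R -0.027 and IL6 1.65 (passing). PIAS3 passed in the 3 fits with slide, as IL23A did. IL4R was -0.055 with quantile normalization, IL2RA -0.012 as the mean of its probes, and PIAS3 -0.23 without the first column. The cause of these shifts was not tested. With a horse or array left out, changes ran from -0.19 to 0.36 for CD2, -0.15 to 0.68 for CD28, -0.41 to 0.52 for IL7R, -0.15 to 0.41 for IL4, -0.97 to 0.32 for IFNG, 0.19 to 3.22 for IL23A, -0.44 to 0.11 for CD40, -1.15 to 0.070 for FOXP3, -0.23 to 4.18 for PIAS3, -0.047 to 0.21 for IL2RA, -0.13 to 0.22 for IL4R, 0.59 to 1.67 for IL6, 0.31 to 0.80 for S1PR1, 0.12 to 0.44 for CD44 and 0.059 to 0.81 for SELPLG. IL4 on horse 4 lies too near background for small differences to be read.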
